A study of Homo sapiens with 8 samples.

Results

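The complement components C3, C1R, C1S, CFB and CFD, the complement regulators SERPING1, CD55 and CD59, and the pentraxin PTX3 were followed through inflachromene (ICM) treatment of human lung fibroblasts. These 9 genes were taken by gene symbol from the 28265 genes of the count tables. Of 8 tested members, 3 were called lower than in control after 3 days of ICM and 5 after 6 days. Of all genes, 13.2% and 17.2% were called lower. At both times 0 members were called higher, beside 8.85% and 13.3% of all genes, shares at which 0 of 8 does not stand out. PTX3 and C3 were among the members that fell. In the libraries labelled MetaICM, both stood above control. C1S, among the highest members in every library, and CFD, which was barely detected, were not called in any comparison.

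Complement is a cascade of plasma proteins that tags surfaces and opens pores in target membranes. It is started by C1 on bound antibody or pentraxins (classical pathway), by carbohydrate-binding collectins and ficolins (lectin pathway), or by spontaneous C3 turnover amplified by factors B and D (alternative pathway), and all routes meet at C3. Host cells hold the cascade back with soluble and membrane-bound inhibitors. Most plasma complement comes from the liver, but fibroblasts are known to make C1r, C1s, C3 and factor B and to secrete PTX3 in response to inflammatory signals.

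All libraries came from IMR90, an established primary fibroblast line from fetal lung that is widely used to study senescence, and ICM is a small molecule inhibitor that acts on the chromatin proteins HMGB1 and HMGB2. The 8 libraries came from poly(A)-selected RNA of the factory RNA-Seq protocol, which enriches nascent RNA, and fall into 4 conditions of 2. The control libraries are labelled young, with no treatment named; the other conditions are 3 days of ICM, 6 days of ICM, and MetaICM, a label that is not explained in the sources used here and carries no time. No genetic change is given for any condition, and the cells of the study were single isolates of 1 line. The labels do not say whether the libraries of a condition came from separate cultures, so the p-values below measure the spread between these libraries only, which may be technical. In these bulk libraries, fewer cells of a type and less RNA per cell cannot be told apart.

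Between 12095123 and 23166405 read pairs were counted on exons per library, and libraries of the same condition differed by more than counting noise, most of all the control pair. All 10 fibroblast markers exceeded 1 CPM in every library, where CPM is the count scaled to the library total. Their summed level was 23011 to 23448 CPM in control, 12865 to 14595 CPM after 3 days, 11046 to 11451 CPM after 6 days and 20440 to 21432 CPM in MetaICM, and it moved in the same direction as several of the members described below. Most of it was collagen (COL1A1, COL1A2 and COL3A1). At 3 and 6 days, 7 and 6 of the 10 markers were called lower, beside 13.2% and 17.2% of all genes. Not all markers followed the sum. FAP averaged 126 CPM in control, 151 CPM after 3 days, 95.8 CPM after 6 days and 73.8 CPM in MetaICM. For COL3A1 the means were 3081, 2882, 2943 and 2483 CPM in the same order. Of the 8 monocyte and macrophage markers, 1 or 2 exceeded 1 CPM in both libraries of a condition, and their sum stayed between 2.98 and 4.95 CPM. The summed level of 8 epithelial markers was 73.1 to 106 CPM in control, 38.1 to 38.5 CPM at 3 days, 36.4 to 38.1 CPM at 6 days, and 68.6 to 71.9 CPM in MetaICM, most of it KRT18. The sum of 6 endothelial markers was 186 to 193 CPM in control, 129 to 136 CPM and 165 to 198 CPM after 3 and 6 days, and 222 to 235 CPM in MetaICM, nearly all of it TEK, while VWF and KDR were lower in MetaICM than after 6 days and PECAM1, CDH5 and CLDN5 did not exceed 1 CPM in any library. The sum of 6 adipocyte markers did not exceed 1.24 CPM. The part of these lists in the results was not tested.

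PTX3 and CFB hold the motifs of inflammatory transcription factors just ahead of their start sites, and the bases before each start are shown for that reason. They are RefSeq sequences of build GRCh38.p14 on the plus strand, at chr3:157436600-157436849 for PTX3 and chr6:31945845-31946094 for CFB. Capitals mark matches, on either strand, to an NF-kB motif (both genes), to the C/EBP motif TTGCNNAA (PTX3), and to the STAT motif TTCNNNGAA and the IRF motif, in which NN separates GAAA from GAAA (CFB).
PTX3: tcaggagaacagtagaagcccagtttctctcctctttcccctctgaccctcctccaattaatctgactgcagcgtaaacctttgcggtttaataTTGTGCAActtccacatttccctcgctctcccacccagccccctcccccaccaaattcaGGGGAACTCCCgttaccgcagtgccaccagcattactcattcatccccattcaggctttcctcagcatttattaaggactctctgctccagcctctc
CFB: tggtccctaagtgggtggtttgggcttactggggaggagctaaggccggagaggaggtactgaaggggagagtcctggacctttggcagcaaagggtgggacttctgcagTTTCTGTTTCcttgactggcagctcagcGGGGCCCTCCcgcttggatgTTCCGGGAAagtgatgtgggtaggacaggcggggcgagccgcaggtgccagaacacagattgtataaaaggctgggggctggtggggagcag
In PTX3, a pair of overlapping NF-kB matches began 97 and 96 bases before the start, and the C/EBP match began 156 bases before it. In CFB, the IRF match began at 140, the NF-kB match at 112 and the STAT match at 92 bases before the start. Of 35116 promoter windows of 300 bases, 11.3% held the NF-kB motif, 10.5% the C/EBP, 7.66% the STAT and 3.57% the IRF motif. Windows were at hand for 6 of the 9 members. The windows of C1R held C/EBP and STAT matches, those of CD59 held the same kinds, and those of CD55 and CFD held none of the 4 motifs. A match describes these letters and not a bound site.

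PTX3, a secreted long pentraxin that recognises microbes and binds C1q, lies on chromosome 3 (hg19, chr3:157154639-157161421, plus strand, 3 exon blocks). Its level was 131 and 86.1 CPM in the control libraries, 14.0 and 13.1 CPM at 3 days, 17.8 and 17.7 CPM at 6 days, and 233 and 234 CPM in MetaICM. Every ICM library was therefore below both control libraries and both MetaICM libraries were above them, while the control libraries themselves lay far apart. Against control, PTX3 was downregulated at 3 days (log2FC −3.01 ± 0.19 SE, adjusted p = 2.69e-07 by edgeR's quasi-likelihood test, n = 2 libraries per condition) and at 6 days (log2FC −2.62 ± 0.18, adjusted p = 2e-06). In MetaICM it was upregulated (log2FC 1.09 ± 0.16, adjusted p = 0.00165). Between 3 and 6 days its log2FC was 0.38 ± 0.13, below the size cutoff of 0.6 used for calls.

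C3, the component on which all activation routes converge, lies on chromosome 19 (hg19, chr19:6677715-6720661, minus strand) and followed PTX3 at a far lower level. Its counts were 61 and 33 in control, 13 and 9 after 3 days, 8 and 6 after 6 days, and 211 and 223 in MetaICM. In CPM these were 3.63 and 2.70, then 0.604 and 0.598, then 0.431 and 0.319, and then 10.5 and 9.75. The 4 conditions did not overlap. C3 fell at 3 days (log2FC −2.40 ± 0.38, adjusted p = 0.00053) and at 6 days (log2FC −3.08 ± 0.39, adjusted p = 0.000148), and rose in MetaICM (log2FC 1.64 ± 0.21, adjusted p = 0.00077), by the same edgeR test. The step from 3 to 6 days was not called (log2FC −0.68, 95% interval −1.78 to 0.42), at counts of 13 or fewer. Set directly against 6 days of ICM, the MetaICM libraries held 26.5-fold more C3 (log2FC 4.73 ± 0.27, edgeR adjusted p = 3.41e-12) and 13.1-fold more PTX3 (log2FC 3.71 ± 0.08, adjusted p = 1.15e-18). At 8 and 6 counts after 6 days, C3 passed the filter on low counts only through the other condition of each comparison. With at least 10 counts required in every library, it was not tested in any comparison with an ICM time. The size of its folds is therefore uncertain.

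The alternative pathway proteases were CFB, which joins C3b in the C3 convertase, and CFD, which cleaves factor B. CFB (hg19, chr6:31913872-31919861, plus strand) stood at 9.82 and 7.95 CPM in control, 6.18 and 5.85 CPM after 3 days, 3.39 and 3.77 CPM after 6 days, and 8.58 and 7.39 CPM in MetaICM. The levels stepped down from control through 3 to 6 days without overlap, and the MetaICM libraries overlapped with control. Against control, CFB was not called at 3 days (log2FC −0.57 ± 0.22, edgeR adjusted p = 0.0673), was downregulated at 6 days (log2FC −1.33 ± 0.21, adjusted p = 0.000726), and had a log2FC of −0.18 in MetaICM (95% interval −0.59 to 0.24). Without the second control library the 3-day value was −0.70 and passed both cutoffs. CFB is also annotated on 6 alternative sequences of chromosome 6 and its count pools all of these placements, so its level is uncertain. CFD (hg19, chr19:859664-863641, plus strand) held between 4 and 13 counts per library, passed the filter on low counts only in the comparisons with MetaICM, and was not called in any of them.

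C1R and C1S encode the paired serine proteases of the C1 complex, in which C1r cleaves C1s. They lie 9188 bases apart on chromosome 12, C1R on the minus strand (hg19, chr12:7187523-7245041) and C1S on the plus strand (chr12:7168022-7178335). C1R was at 277 and 246 CPM in control, 184 and 168 CPM after 3 days, 145 and 137 CPM after 6 days, and 205 and 197 CPM in MetaICM. C1S was at 359 and 319 CPM in control, 395 and 334 CPM after 3 days, 386 and 341 CPM after 6 days, and 298 and 275 CPM in MetaICM. C1R thus declined without overlap between conditions along the treatment and was between 3 days and control in MetaICM, whereas the ranges of C1S overlapped between control and both ICM times. C1R was called lower at 6 days (log2FC −0.91 ± 0.11, edgeR adjusted p = 0.000115). At 3 days its log2FC of −0.58 missed the size cutoff, and it passed at −0.65 without the second control library and at −0.63 without the first 3-day library. In MetaICM the log2FC of C1R was −0.40 ± 0.11. The log2FC of C1S against control was 0.10 (95% interval −0.19 to 0.38) at 3 days, 0.09 (−0.17 to 0.34) at 6 days and −0.26 (−0.51 to −0.01) in MetaICM.

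The ratio of C1S to C1R counts within a library does not depend on scaling between libraries, and it was looked at after the values of both genes had been seen. It was 1.29 and 1.30 in control, 2.15 and 1.99 after 3 days, 2.67 and 2.49 after 6 days, and 1.45 and 1.40 in MetaICM. Libraries of the same condition lay closer to each other than to any other library, and the conditions did not overlap. No test was made of it.

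**Figure D1:**
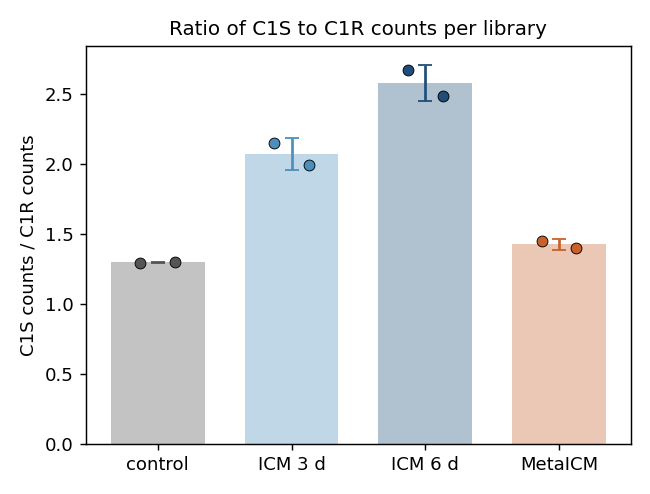
Ratio of C1S to C1R counts (vertical axis, no unit) in control, ICM 3 d, ICM 6 d and MetaICM; points are single libraries, bars are means and error bars are SD, n = 2. The ratio was near 1.30 in control, 2.07 at 3 days, 2.58 at 6 days and 1.42 in MetaICM.

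The regulators did not move together. SERPING1, the C1 inhibitor, which inactivates C1r and C1s (hg19, chr11:57365158-57382321, plus strand), stood at 8.51 and 13.2 CPM in control, 6.74 and 7.05 CPM after 3 days, 4.90 and 5.26 CPM after 6 days, and 4.76 and 5.99 CPM in MetaICM. All libraries of the other conditions were below both control libraries, which differed from each other more than any other pair of this gene. SERPING1 was called lower at 6 days (log2FC −1.09 ± 0.24, edgeR adjusted p = 0.00441) and in MetaICM (log2FC −1.01 ± 0.24, adjusted p = 0.0121). At 3 days it was not called (log2FC −0.65 ± 0.24, adjusted p = 0.0623), and the value depended on the control library left out. It was −0.94 and called without the first (adjusted p = 0.00113), and −0.30 and not called without the second (adjusted p = 0.302). With the replicate number as a block the 3-day value also passed (adjusted p = 0.00603), although the labels do not say that these numbers pair libraries. It passed as well with all 8 libraries in 1 fit (log2FC −0.65, edgeR adjusted p = 0.0284) and with all genes that hold a count (−0.64, adjusted p = 0.0225).

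CD55, or decay-accelerating factor, a membrane protein that takes C3 convertases apart (hg19, chr1:207495023-207534311, plus strand), was at 51.8 and 42.4 CPM in control, 33.1 and 28.9 CPM after 3 days, 37.7 and 35.1 CPM after 6 days, and 20.6 and 22.9 CPM in MetaICM. The control libraries were highest and the MetaICM libraries lowest, with no overlap between conditions. CD55 was downregulated in MetaICM (log2FC −1.13 ± 0.14, edgeR adjusted p = 0.000565). At 3 days it was just past the size cutoff (log2FC −0.61 ± 0.15, adjusted p = 0.00947), and it fell short of it without the first control library (−0.45), without the second 3-day library (−0.53) and with library totals as the scaling (−0.53). At 6 days its log2FC was −0.39 ± 0.13. MetaICM was also below 6 days (log2FC −0.75 ± 0.09, adjusted p = 7.66e-07).

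CD59, the membrane anchored inhibitor of pore assembly (hg19, chr11:33724556-33758025, minus strand), was at 186 and 151 CPM in control, 168 and 133 CPM after 3 days, 141 and 137 CPM after 6 days, and 264 and 291 CPM in MetaICM. The ICM libraries overlapped with control at 3 days and lay below it at 6 days, and the MetaICM libraries were above all others. CD59 was upregulated in MetaICM against control (log2FC 0.70 ± 0.12, edgeR adjusted p = 0.00353), a value that dropped under the size cutoff without the second control library (0.58). Against 6 days of ICM it was 1.99-fold higher (log2FC 0.99 ± 0.07, adjusted p = 3.08e-10). The log2FC of CD59 against control was −0.18 (95% interval −0.49 to 0.14) at 3 days and −0.29 (−0.56 to −0.02) at 6 days, neither of them called. In MetaICM, the membrane regulators CD55 and CD59 therefore stood on opposite sides of control.

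**Figure D2:**
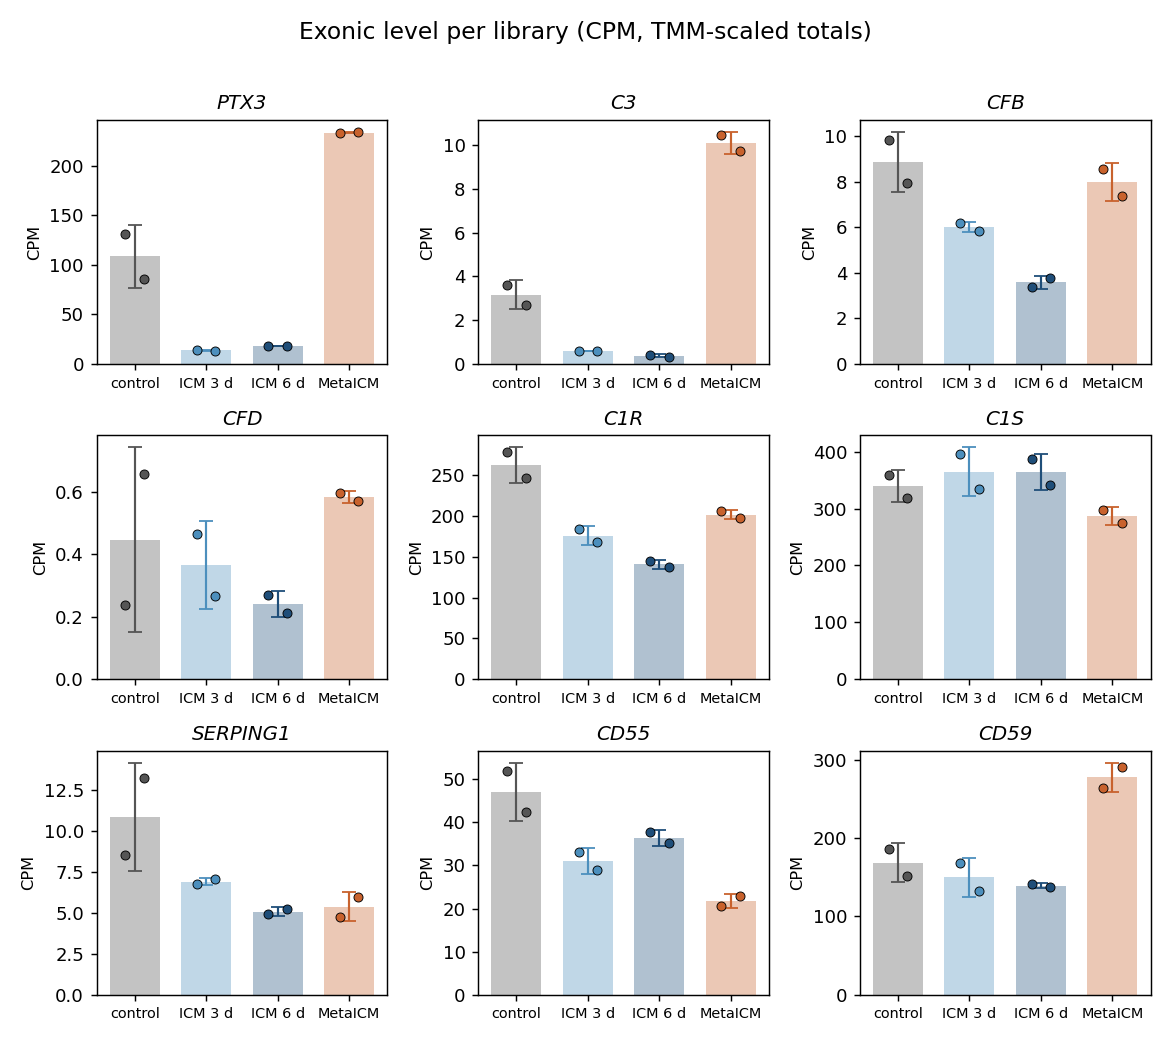
Level of each member in CPM (vertical axis, linear from 0, one scale per gene) in control, ICM 3 d, ICM 6 d and MetaICM. Points are single libraries, bars are means and error bars are SD, n = 2; PTX3 and C3 are lowest in the ICM libraries and highest in MetaICM, CD55 is lowest in MetaICM.

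Counted over the members, 0 of 8 tested were called higher and 3 lower at 3 days (C3, CD55 and PTX3), where a call needed an adjusted p under 0.05 and an absolute log2FC over 0.6. Of all genes tested in that comparison, 8.85% were called higher and 13.2% lower. Leaving out the second control library gave 5 lower members. At 6 days, 0 of 8 were called higher and 5 lower (C3, C1R, CFB, SERPING1 and PTX3), against 13.3% and 17.2% of all genes. At both times DESeq2 also called 0 higher. At an unadjusted edgeR p under 0.05, 0 members were higher at either time, and 6 and 7 were lower. In either direction, 6270 of 15692 tested genes passed that p at 3 days and 8101 of 15950 at 6 days. The median log2FC of the tested members was −0.60 at 3 days and −1.0 at 6 days, and that of all genes was 0.01 and −0.0013.

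In MetaICM against control, 3 of 9 members were called higher (C3, CD59 and PTX3) and 2 lower (CD55 and SERPING1), where 7.41% of all genes were higher and 8.99% lower. These comparisons share the control libraries. From 3 to 6 days of ICM, CFB alone was called (log2FC −0.76 ± 0.21, edgeR adjusted p = 0.0158), with 0 of 8 higher and 1 lower beside 3.53% and 4.54% of all genes. At an unadjusted edgeR p under 0.05, 1 member was higher and 3 were lower, where 5113 of 15845 tested genes passed in either direction. The CFB call was lost without any 1 of the 4 libraries (log2FC −0.83 to −0.67) and with DESeq2, which called 0 members.

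MetaICM against 6 days of ICM gave 4 of 9 members higher (C3, CFB, CD59 and PTX3) and 1 lower (CD55), where 15.7% and 12.0% of all genes were called. CFB rose by a log2FC of 1.15 ± 0.18 (edgeR adjusted p = 1.83e-05). C1R (0.51) and C1S (−0.35) passed the p threshold there in opposite directions, below the size cutoff. Against 3 days of ICM, 3 of 9 were higher and 0 lower, where 13.1% and 10.3% of all genes were called. The 3 were C3 (log2FC 4.05 ± 0.25), CD59 (0.88 ± 0.10) and PTX3 (4.10 ± 0.10). DESeq2 likewise called 0 lower there. At an unadjusted edgeR p under 0.05, 5 members were higher and 2 lower, where 8233 of 16209 tested genes passed in either direction.

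**Figure D3:**
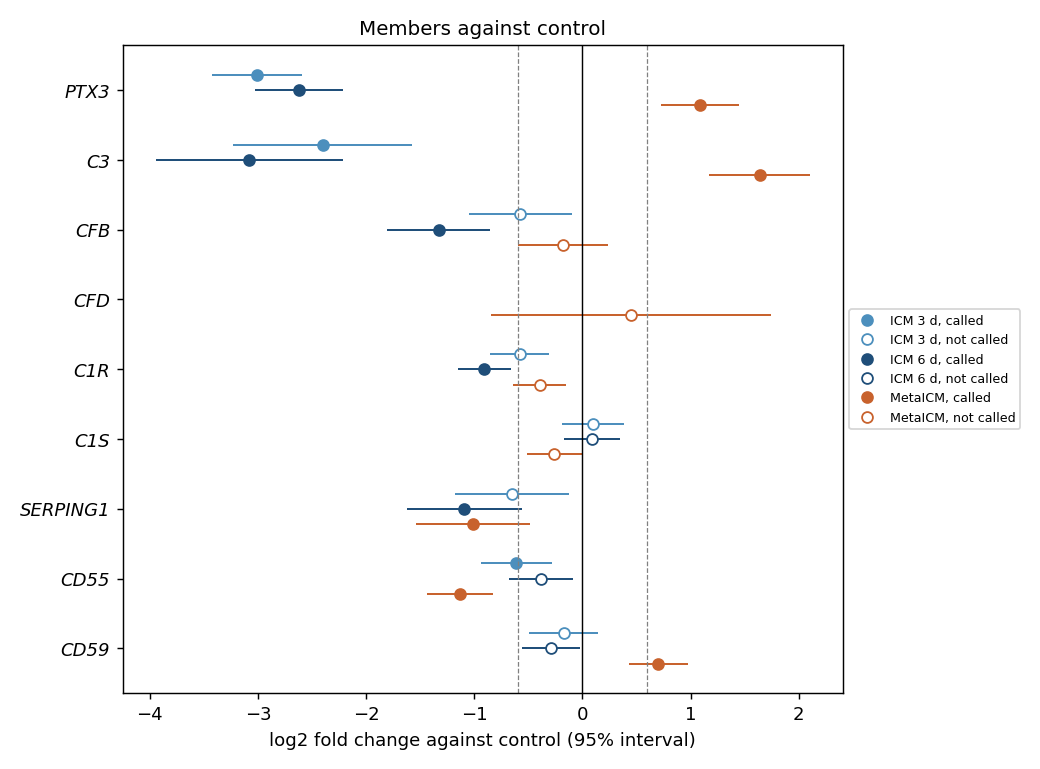
The log2 fold change of each member against control (horizontal axis) with its 95% interval for ICM 3 d, ICM 6 d and MetaICM; filled points were called, open points were not, and dashed lines mark ±0.6. PTX3 and C3 lie left of 0 at both ICM times and right of 0 in MetaICM; CFD was tested in MetaICM only.

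Per kilobase of exon, PTX3 changed its place in the order of the members more than any other. In control the order was C1S (123 CPM per kb), C1R (110), PTX3 (57.5), CD59 (20.9), CD55 (14.5), SERPING1 (5.81), CFB (3.59), C3 (0.606) and CFD (0.369). The libraries overlapped between the neighbours C1S and C1R and between C3 and CFD. After 3 days PTX3 had the rank 5 (7.19 CPM per kb), behind CD59 (18.6) and CD55 (9.51), and after 6 days it kept that rank (9.44), still behind CD55 (11.2). In MetaICM it ranked 1 (124 CPM per kb), ahead of C1S (104) and C1R (84.6). There the neighbours CFB (3.23) and SERPING1 (2.88) overlapped between libraries. C3 moved from 0.115 and 0.0716 CPM per kb after 3 and 6 days, below CFD on average, to 1.93 CPM per kb in MetaICM, above CFD (0.480).

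Among the members, the profiles most alike over the 8 libraries were those of C1R and CFB, with a root mean square difference of 0.24 in centred log2 CPM, and PTX3 was closest to C3 (0.42). Of 16590 genes, KISS1 and PRRX2 were the nearest to both C3 (0.29 and 0.33) and PTX3 (0.28 and 0.39). KISS1, the kisspeptin precursor gene, had mean levels of 2.02 CPM in control, 0.286 and 0.241 CPM after 3 and 6 days, and 5.15 CPM in MetaICM. PRRX2, a homeobox gene of mesenchyme, had 1.57 CPM, then 0.216 and 0.134 CPM, and then 2.95 CPM. Under ICM, KISS1, PRRX2 and C3 were all near the floor of detection, so these distances rest there on few counts. The nearest genes were NBEAL2 and FMNL3 for C1R (0.05 each), and ASAP3 (0.06) and PEAR1 (0.10) for CFB. AADAT (0.11) was among those of SERPING1. For CD55 they were TNIK (0.10) and GREM1 (0.12), and for CD59 ABHD12 (0.08) and CFL1 (0.09). These are descriptions over 8 libraries that share their depth and conditions. The distance is not scaled to the size of a gene's changes, so genes that change little can lie close whatever their pattern.

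The rest of the complement system was read from lists of 54 other components, regulators and receptors and 6 other pentraxins, of which 24 were tested in at least 1 comparison and 7 held no count in any library. C4A and C4B, near-identical copies, were among the latter, and reads that fit both copies may not have been counted. Their lack of counts therefore does not show a lack of expression. Of the other complement genes, 5 of 21 tested were called higher and 2 lower at 3 days, and 7 of 21 higher and 1 lower at 6 days (4 higher and 0 lower at an adjusted p of 0.01). Over all genes, 8.85% were higher and 13.2% lower at 3 days, and 13.3% and 17.2% at 6 days. In MetaICM against control, 2 of 22 were called higher and 0 lower, by edgeR and by DESeq2. The shares over all genes were 7.41% and 8.99% there. At an unadjusted edgeR p under 0.05, 9 were higher and 4 lower, where 6402 of 15904 tested genes passed in either direction. The median log2FC of the other complement genes was −0.14, 0.04 and 0.23 in these comparisons. Against 6 days, MetaICM had 1 of 22 higher and 4 lower, beside 15.7% and 12.0% of all genes. Against 3 days it had 3 higher and 6 lower, beside 13.1% and 10.3%. From 3 to 6 days, 4 of 21 were called higher and 0 lower, by edgeR and by DESeq2. For that step, 3.53% of all genes were called higher and 4.54% lower. At an unadjusted edgeR p under 0.05, 8 were higher and 1 lower, where 5113 of 15845 tested genes passed in either direction. Without the first control library, the MetaICM against control count became 3 higher and 1 lower.

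CLU, or clusterin, a soluble regulator which keeps terminal complexes out of membranes, was at 172 and 133 CPM in control, 483 and 413 CPM after 3 days, 599 and 573 CPM after 6 days, and 246 and 245 CPM in MetaICM. All libraries of the other conditions were above both control libraries, and those of 6 days were highest. CLU rose at 3 days (log2FC 1.55), at 6 days (1.93) and in MetaICM (0.67), the last falling to 0.52 without the second control library.

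Pore-forming components split by gene. C6 was higher at 3 days (log2FC 1.21) and 6 days (1.75) and lower in MetaICM than after 6 days (−2.31), while C7 was higher in MetaICM than in control (1.44) and was not called at either ICM time. C9 rose at 6 days (1.45) from 10 and 13 counts in control to 39 and 44, a call lost with DESeq2 and without the first control library (1.05). Of the lectin pathway genes, the collectin COLEC10 rose at 3 and 6 days (both 2.0), and its value without the first control library was 2.72 at either time. MASP1, a lectin pathway protease, was at 158 and 146 CPM in control and 90.5 and 83.0 CPM at 3 days. At 6 days it was at 160 and 155 CPM, and in MetaICM at 213 and 207 CPM. MASP1 was called lower at 3 days than in control (−0.81). It was called higher at 6 than at 3 days (0.81 to 0.91 over the alternative settings) and in MetaICM than at 3 days (1.27). COLEC12, a collectin that also serves as a scavenger receptor, fell to 1.21 and 1.06 CPM at 3 days from 7.86 and 9.09 CPM in control (log2FC −2.89), and its 6-day call (−0.67) was lost without the second control library (−0.55), without the second 6-day library (−0.40) and with DESeq2. CSMD3, a membrane protein with complement control domains, held 0 and 4 counts in control and 12 to 27 elsewhere. It thus passed the filter on low counts only through the other conditions. Its log2FC of 3.25 at 3 days was 2.06 without the first control library, and its 6-day value of 2.90 was 1.72 and no longer called. Without the second control library, the control count was 0 and no fold is given. The neuronal pentraxin NPTX1 was higher at 3 days (1.38) and in MetaICM (1.26) and lower at 6 than at 3 days (−1.43).

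**Figure D4:**
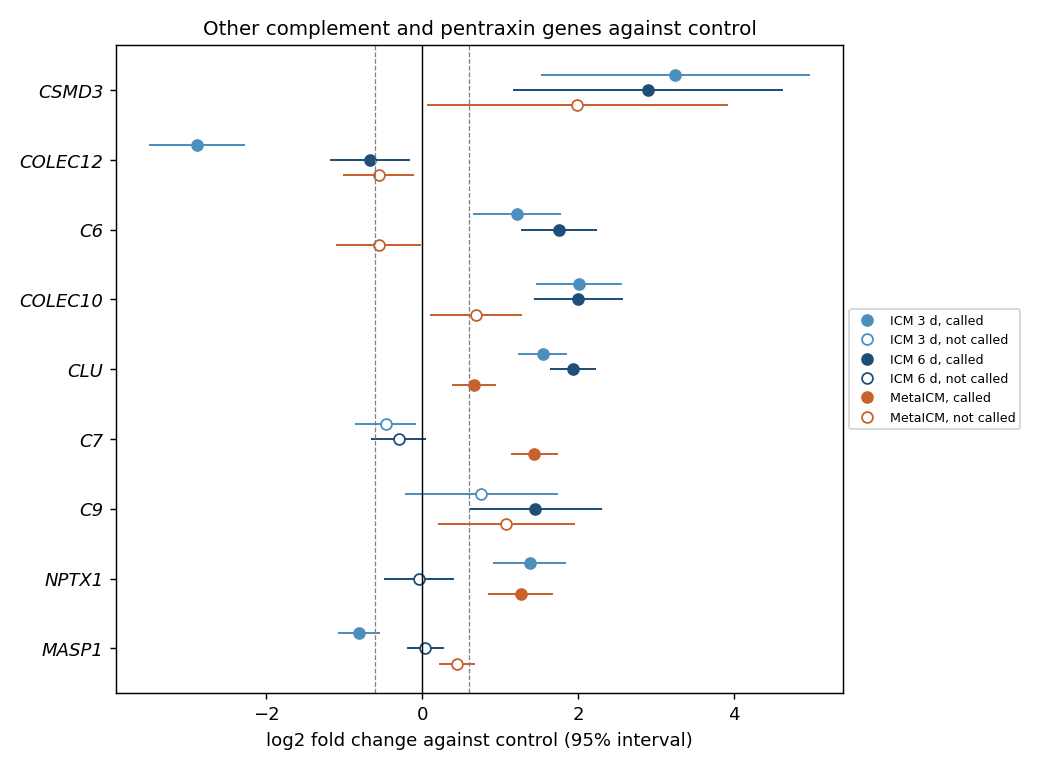
The log2 fold change against control (horizontal axis) of 9 other complement and pentraxin genes with large changes, with 95% intervals; filled points were called, open points were not, and dashed lines mark ±0.6. CLU in all 3 comparisons and COLEC10 at both ICM times lie right of 0, opposite to PTX3 and C3 under ICM.

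Genes of factors and cytokines known to act on complement and PTX3 genes were listed as well. Of 13 tested transcription factor genes, 4 were called higher and 2 lower at 3 days, and 2 and 2 at 6 days, while 1 was called lower in MetaICM against control. The shares over all genes were 8.85% higher and 13.2% lower at 3 days, 13.3% and 17.2% at 6 days, and 7.41% and 8.99% in MetaICM. RELB, an NF-kB subunit, was at 12.1 and 8.44 CPM in control, 5.90 and 5.65 CPM after 3 days, 3.55 and 3.51 CPM after 6 days, and 9.83 and 12.8 CPM in MetaICM. It was lower at 6 days (log2FC −1.56 ± 0.23, edgeR adjusted p = 0.000373) and also at 3 days (−0.84), where the call was lost without the first control library (−0.55). MetaICM held more RELB than 6 days of ICM (log2FC 1.68 ± 0.18, adjusted p = 7.59e-08). In every ICM library RELB was below control, and in MetaICM it was within the control range or just above it. The NF-kB genes did not all move alike. NFKB1 was lower at 3 days (log2FC −0.90) and at 6 days (−0.61), where the call was lost without the first control library (−0.47), without the first 6-day library (−0.57) and with library totals as the scaling (−0.56). RELA (0.44 at 3 days, 0.25 at 6 days) and NFKB2 (−0.32 and −0.25) were not called. The genes called higher at 3 days were JUN (0.85), CEBPB (0.79), IRF1 (0.65) and CEBPD (0.65). The IRF1 call was lost without the second control library (0.43) and without the first 3-day library (0.55), and that of CEBPD without the first control library (0.58) and without the first 3-day library (0.53). JUN was also higher at 6 days (1.04), and FOS was the gene called lower in MetaICM (−1.97), with −1.37 without the first MetaICM library and −3.04 without the second.

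Of 5 tested cytokine genes, 3 were called lower at 3 days (IL1A, IL1B and IL6), 3 at 6 days (IL1A, IL6 and IL33), and 4 in MetaICM against control (IL1A, IL1B, IL6 and IL33). Over all genes, 13.2%, 17.2% and 8.99% were called lower in these comparisons. The 6-day calls of IL6 and IL33 were both lost without the first control library (adjusted p = 0.169 and 0.411). The IL33 call (log2FC −1.22), at 12 and 14 counts after 6 days, was also lost with DESeq2 and without either 6-day library (−1.11 and −1.32). Without the first control library, IL1B went from −1.92 to −1.0 at 3 days and from −3.09 to −2.15 in MetaICM, and IL33 from −2.52 to −1.91 in MetaICM. IL1A, which encodes an inducer of PTX3, was at 3.75 and 4.42 CPM in control, 0.651 and 1.33 CPM after 3 days, 0.915 and 0.531 CPM after 6 days, and 0.496 and 0.612 CPM in MetaICM. IL6 was at 7.26 and 4.51 CPM in control, 2.19 and 1.86 CPM after 3 days, 3.28 and 3.08 CPM after 6 days, and 2.73 and 2.58 CPM in MetaICM. Both genes stayed low in MetaICM, where PTX3 and C3 were at their highest, and a link between these levels was not tested. IL1A fell in MetaICM by a log2FC of −2.87 ± 0.33 and IL6 by −1.18 ± 0.26 (edgeR adjusted p = 0.00039 and 0.00967). The 6-day value of IL6 (−0.92) was −0.51 without the first control library, and its adjusted p was 0.0571 without the second 6-day library.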

How the data were processed

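Exonic read counts of 8 factory RNA-Seq libraries were analysed, 2 per condition. Per the labels, the authors used STAR 2.6.0c and genome build GRCh37, and per the file headers the deposited counts were made with featureCounts 1.6.3 for primary alignments of properly paired, non-chimeric fragments, without strand. Reads that overlap several genes were left out. The study's methods speak of unique counts, and the headers name primary alignments, which alone would not leave out multi-mapping reads. The study's intron-based values were not used here. Totals ran from 12095123 to 23166405 counts, and 0 columns of other samples were left out.

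Conditions were compared 2 at a time with edgeR 4.0.16 (R 4.3.3): TMM scaling, filterByExpr at a minimum count of 10, the quasi-likelihood test and Benjamini-Hochberg adjustment over all genes tested. A call needed an adjusted p under 0.05 and an absolute log2FC over 0.6. CPM values use TMM-scaled totals, SE is the absolute log2FC divided by the square root of F, and 95% intervals use the t distribution with the fit's degrees of freedom. Leaving out a library used 1 fit of the other 7 libraries, in which a lone library is assumed to vary like the other conditions. DESeq2 1.42.0 was an alternative.

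All 9 members are reported. Of the other complement and pentraxin genes, at most 10 are named: those called with at least 10 counts in each library of the higher condition, by absolute log2FC. Called transcription factor and cytokine genes may be named, as may the 2 nearest profiles of each member called against control (root mean square difference of log2 CPM, prior count 1). Some genes that these rules select are not reported here. The members and lists were chosen with earlier results of these data known. Positions are those of the count files (hg19), and promoters are RefSeq's (GRCh38.p14).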

Additional observations from a re-analysis of the deposited data

Results flagged for a closer look

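CFB was flagged because its response to ICM differed between times, by the direct test of 6 against 3 days (log2FC −0.76, edgeR adjusted p = 0.0158, both 6-day libraries below both 3-day libraries). The call was lost with DESeq2 (adjusted p = 0.0679) and whenever 1 of the 4 libraries was left out (adjusted p from 0.0669 to 0.174). With 2 libraries per condition, no library could be tested for standing apart from its group.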

How the results depend on the processing

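The alternatives were DESeq2, other scalings, other filters, all 8 libraries in 1 fit, a stricter adjusted p, a replicate block and each library left out. The number of members called at 3 days ran from 2 to 5 when 1 library was left out. With at least 10 counts required in every library, C3 dropped out of the comparisons with an ICM time. The members called were then 2 at 3 days, 4 at 6 days, 4 in MetaICM against 6 days and 2 in MetaICM against 3 days. From 6 against 3 days, 0 members were called with DESeq2, at an adjusted p of 0.01 and with any library left out (0 to 0). Over all genes, MetaICM against control gave 1532 calls at an adjusted p of 0.01 and 1634 to 3836 with a library left out, and 6 against 3 days gave 678 to 939. With library totals as the scaling, 1785 genes were higher and 1767 lower at 3 days, in place of 1389 and 2067. Uncalled values that changed sign were C1S at 3 days (−0.0065 without the first 3-day library, 0.20 without the second), C1S from 3 to 6 days (0.10 without the first 3-day and 0.077 without the second 6-day library), CD59 from 3 to 6 days (0.051 without the first 3-day library, −0.25 without the second), CFD in MetaICM against control (−0.18 without the first and 1.27 without the second control library) and SERPING1 in MetaICM against 6 days (0.23 without the first and −0.093 without the second MetaICM library); the cause was not tested. SERPING1 in MetaICM was not called at an adjusted p of 0.01. Replicate numbers did not pair libraries by the labels, and same-numbered libraries deviated together only weakly (r from −0.11 to 0.16). The replicate block gave 4 called members at 3 days in place of 3 and 3915 in place of 3456 genes, and moved no count of members or of all genes by over 1.5 times. Crossing the numbers, tried after seeing the data, gave 3 members and 3956 genes in MetaICM against 3 days, in place of 3 and 3798. The count of other complement genes called in MetaICM against control, 2, became 4 with all genes that hold a count or all 8 libraries in 1 fit and 5 with crossed numbers. Depth limits CFD (4 to 13 counts) and C3 under ICM (6 to 13 counts).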
